A study of Mus musculus with 72 samples.

Results

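Liver at circadian time 00 (CT00) was represented by 6 of the 72 RNA-seq libraries of the series: 3 from mice on a diet lacking methionine and choline (MCD) and 3 from mice on a matched control diet. They were chosen by their labels alone (tissue, diet and time), and no measured value entered the choice. All animals were wild-type C57BL/6 mice that ate the diet (TD.220158 for MCD, TD.220157 for control) ad libitum for 11 days. They were housed singly under light and dark for 10 days and in constant darkness on day 11, when livers were taken every 4 hours from CT00 to CT20. Each group held 2 males (replicates 1 and 2) and 1 female (replicate 3), although the growth protocol speaks of males alone; the sample labels were followed. RNA came from about 40 mg of the left lobe. A change of RNA level in such bulk tissue can come from fewer cells of a type or from less RNA per cell, and these cannot be told apart.

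Methionine and choline are both methyl donors. Liver turns methionine into S-adenosylmethionine, the donor for most methylation reactions, and uses choline to build phosphatidylcholine, which packages fat into secreted lipoprotein particles. A diet without both is a widely used mouse model of fatty liver, in which mice also lose weight. When an amino acid runs short, the kinase GCN2 slows translation and raises the transcription factor ATF4, whose targets import and make amino acids, charge tRNAs and include the liver hormone FGF21. CT00 is the start of the subjective day, when nocturnal mice end their main feeding period.

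Of 22823 genes in the table, 20249 passed the filter on low counts. Levels are given as CPM, counts scaled to a common library size by the TMM method, and changes as log2 of MCD over control ± SE from edgeR's quasi-likelihood fit over all 36 liver libraries, with n = 3 libraries per group. A gene was called when its Benjamini-Hochberg adjusted p was under 0.05. Nothing in the labels says more about how the replicates were raised than that they are separate mice, so the p-values measure the spread between these mice.

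The 6 libraries held 55511779 to 71650324 counts. The level of mt-Nd6, a mitochondrial transcript from the light strand, split the 36 liver libraries into a low and a high kind; control 1, MCD 1 and MCD 3 were of the low kind (62.9 to 131 CPM), and control 2, control 3 and MCD 2 of the high kind (438 to 894 CPM), so both diets held both kinds. Markers of hepatocytes made up 82330 to 104400 CPM in controls and 95220 to 100200 CPM on MCD in sum. Of the 8 markers, 7 had lower fitted levels on MCD (median -0.35 log2). The summed cholangiocyte markers (31.9 to 33.4 and 36.9 to 43.1 CPM) and brain markers (10.3 to 12.3 and 19.2 to 20.4 CPM) did not overlap between the diets. Of the 7 cholangiocyte markers tested none was called, and of the 5 brain markers 1 was, Syt1 (adjusted p = 0.045), while Snap25 had no count in any CT00 library. Of 14 macrophage markers tested, 12 had higher fitted levels on MCD and 1 was called, Itgax (adjusted p = 0.048); their summed level was 371 to 784 CPM in controls and 499 to 769 CPM on MCD. The calls of Syt1 and Itgax were lost without any 1 of the 6 libraries. Of 8 endothelial markers 1 was called higher, Stab2 (a call lost without any 1 library but control 1). Of 8 hepatocyte markers 2 were called lower (1 without control 1, control 2, MCD 1 or MCD 2, and 0 in males alone). None of 10 stellate cell, 8 T and NK cell, 7 B cell, 6 erythrocyte or 4 neutrophil markers was called. Over all genes 6.57% were called higher and 6.02% lower at CT00. The fitted level on MCD was higher for 9 of the stellate cell markers (median 0.37 log2), for all 7 of B cells (median 0.43) and for all 4 of neutrophils (median 1.88, or 3.04 without control 3). Relative to the control mean, the median B cell marker stood at 0.31, -0.32 and 1.28 log2 in MCD 1, 2 and 3 and at -0.23 to 0.39 log2 in controls. The median stellate cell marker stood at 0.13 to 0.37 log2 on MCD and -0.33 to 0.32 log2 in controls. The summed neutrophil markers stood at 0.323 to 1.35 CPM in controls and at 1.07 CPM or more on MCD, and 2 of the 4, S100a8 and S100a9, did not overlap between the diets. The part of other cells in the results was not tested. Outside CT00, 1 library went against its label for part of the genes looked at. The table has the same header over both columns of control males at CT08, so neither could be tied to a replicate number, and they are called control CT08 a and b here. In control CT08 a, Fgf21 stood at 16.8 CPM, against 0.402 to 4.65 CPM in the 17 other controls and 13.3 to 134 CPM in the 18 MCD libraries, and Pnpla3 at 1.43 CPM, against 3.62 to 109 and 0.148 to 1.58 CPM. Chrna4 (3.15 CPM) and Scd1 (5550 CPM) lay between the other controls (from 5.39 and 6697 CPM up) and the MCD libraries (up to 1.91 and 1647 CPM), Trib3 (13.9 CPM) lay within the range of both, and Mat2a was at its control level (70.0 CPM). When that library was left out, 2 macrophage markers were called at CT00. The main values that rest on the other times are therefore given with and without it.

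At CT00 2550 of the 20249 genes (12.6%) were called, 1330 higher on MCD (6.57%) and 1220 lower (6.02%). A change of at least 1 log2 was reached by 433 of the higher genes (2.14%) and 313 of the lower ones (1.55%). An unadjusted p under 0.05 was reached by 5210 genes (25.7%). For 5622 genes (27.8%) the 3 MCD libraries did not overlap the 3 control libraries, with MCD higher for 14.3% of all genes and lower for 13.4%. When the libraries were scaled by their totals alone, the median of all genes moved from 0.02 to 0.28 log2 and the calls became 3429 higher and 542 lower, 86.4% higher in place of 52.2%; directions below are relative to the TMM scaling. With library totals the calls higher and lower were 3 and 0 in the methionine list, 9 and 0 in the NRF2 list and 12 and 0 among tRNA synthetases. The count was 1229 without control 1, 1272 without MCD 1 and 1624 without control 2.

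**Figure D1:**
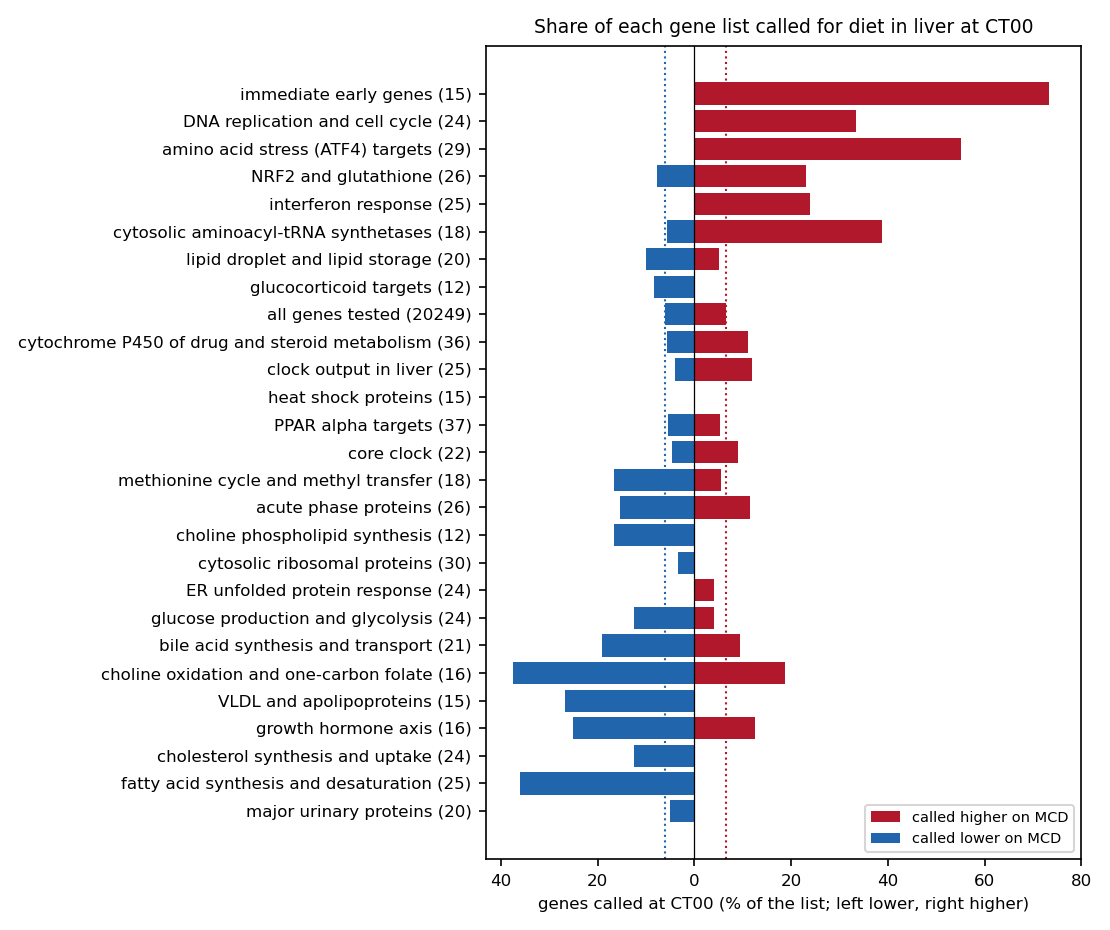
Share of each gene list called at CT00, in percent of the list's tested genes (number in parentheses), to the right for genes higher and to the left for genes lower on MCD; dotted lines mark the shares over all 20249 genes (6.57% and 6.02%). Immediate early genes (11 of 15) and amino acid stress targets (16 of 29) have the longest bars to the right, and lipid synthesis (9 of 25) one of the longest to the left.

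Many genes of the response to missing amino acids rose. Of 29 ATF4 targets tested, 16 were called higher and none lower, with a median change of 1.10 log2 against 0.02 over all genes; 28 of 29 had a higher fitted level on MCD. The 16 calls were 12 without control 1, 18 without MCD 2, 13 without any other 1 library and 10 in males alone. Trib3, a pseudokinase that dampens the same pathway, stood at 2.15, 1.19 and 1.69 CPM in controls 1, 2 and 3 and at 67.6, 19.2 and 39.2 CPM on MCD. All 3 MCD libraries were far above all 3 controls, and the change was 4.64 ± 0.59 log2 (edgeR adjusted p = 3.1e-05). Fgf21, the secreted hormone of fasting and protein restriction, stood at 1.90, 1.78 and 1.39 CPM in controls and 60.7, 99.7 and 29.0 CPM on MCD (5.19 ± 1.02 log2, adjusted p = 0.0018). Here MCD 2 was the highest library, whereas it was the lowest of the 3 for Trib3. The transcription factor gene Atf3 went from 0.837, 0.505 and 1.03 CPM to 62.5, 15.1 and 20.9 CPM (5.40 ± 0.83 log2), and the stress-induced chromatin protein gene Nupr1 from 0.837, 1.09 and 1.73 CPM to 47.8, 5.85 and 46.0 CPM (4.76 ± 0.74 log2). The groups did not overlap for either gene. The stress hormone gene Gdf15 (3.32 ± 0.62 log2), Ddit3, which encodes the transcription factor CHOP (2.09 ± 0.35), the arginine and lysine importer Slc7a1 (2.02 ± 0.47), and the ATF4 partners Atf5 (1.07 ± 0.24) and Cebpg (0.68 ± 0.11) rose as well, and each kept its call without any 1 of the 6 libraries.

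Of the ATF4 list's other members, Asns, asparagine synthetase, stood at 1.12, 2.48 and 0.359 CPM in controls and 11.6, 7.86 and 5.58 CPM on MCD (2.93 ± 0.78 log2, adjusted p = 0.015), and Psat1 of serine synthesis rose by 2.60 ± 0.71 log2 (adjusted p = 0.016). Both calls were lost without control 1, control 3 or MCD 3 (adjusted p of up to 0.0791 and 0.0746). Pycr1, of proline synthesis, rose by 2.35 ± 0.77 log2 (adjusted p = 0.043), a call lost without any 1 library but MCD 2 (up to 0.157). Atf4 itself, which is controlled mainly by translation of its mRNA, stood at 111, 103 and 106 CPM and at 149, 147 and 86.0 CPM, groups that overlapped (0.23 ± 0.20 log2, adjusted p = 0.50). Slc7a11, the cystine importer, missed the threshold (4.34 ± 1.47 log2, adjusted p = 0.052) but was called without control CT08 a (0.021) or MCD 2 (0.044). Leaving out another CT00 library gave an edgeR adjusted p of up to 0.193. Chac1, which degrades glutathione, was not called (1.26 ± 0.68 log2, adjusted p = 0.25). In the list for the response of the endoplasmic reticulum to unfolded proteins, which does not hold Ddit3, 1 of 24 genes was called, its sensor Atf6 (0.81 ± 0.13 log2, adjusted p = 0.00031; 2 of 24 without control CT08 a), and none of 15 heat shock genes was called.

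ATF4 binds with C/EBP proteins at a composite element, TGATGNAA on either strand. In RefSeq promoters (build GRCm38.p6, 250 bases before the start), the element was in 9 of 27 tested ATF4 list genes (33.3%), in 5 of the 15 called ones (33.3%), and in 324 of 12593 tested genes with a promoter (2.57%). It was in 3.77% of called higher and 2.36% of called lower promoters. The 5 called genes are shown because they carry the element and rose; the capitals mark it, and each stretch is 80 bases of the minus strand, 5′ to 3′.
Asns, chr6:7693210-7693289: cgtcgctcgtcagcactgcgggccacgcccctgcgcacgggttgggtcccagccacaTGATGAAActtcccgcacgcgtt
Atf3, chr1:191183400-191183479: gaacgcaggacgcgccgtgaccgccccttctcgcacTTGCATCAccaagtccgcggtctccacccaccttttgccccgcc
Fgf21, chr7:45615586-45615665: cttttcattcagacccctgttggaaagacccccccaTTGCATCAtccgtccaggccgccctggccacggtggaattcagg
Nupr1, chr7:126625537-126625616: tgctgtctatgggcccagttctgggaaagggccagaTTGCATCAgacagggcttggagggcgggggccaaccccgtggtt
Pycr1, chr11:120643808-120643887: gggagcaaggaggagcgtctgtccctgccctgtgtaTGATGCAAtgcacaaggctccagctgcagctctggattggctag
In Asns the element starts 23 bases before the start, in Pycr1 103, in Atf3 and Nupr1 110 and in Fgf21 139. A match describes the letters and not a bound site. The clock's E-box CACGTG was in 9.27% of all tested promoters, 11.9% of called higher and 8.19% of called lower ones, and its D-box TTATGNAA in 2.66%, 2.87% and 1.23%.

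The cytosolic aminoacyl-tRNA synthetases load amino acids onto tRNAs, and many are ATF4 targets. Of 18 tested, 7 were called higher and 1 lower (median 0.33 log2). Sars, for serine, stood at 47.4, 48.9 and 43.9 CPM in controls and 105, 86.3 and 98.1 CPM on MCD (1.05 ± 0.15 log2, adjusted p = 7.7e-05). Gars, for glycine, went from 35.3, 40.6 and 36.5 CPM to 73.3, 62.1 and 66.5 CPM (0.85 ± 0.13 log2). These are changes of about 1 log2 between groups that each spread little. Eprs (0.70 ± 0.11), Yars (0.67 ± 0.14) and Hars (0.51 ± 0.09) kept their calls without any 1 library. Lars and Iars (0.47 log2 each) did not: Lars lost its call without control 1, control 2 or MCD 1 (adjusted p of up to 0.102), and Iars without these or MCD 2 (up to 0.267). Qars, for glutamine, fell by 0.42 ± 0.09 log2 (adjusted p = 0.0026), a call absent when libraries were scaled by totals.

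In the methionine cycle Mat2a was the gene that rose. It encodes the methionine adenosyltransferase of non-hepatocyte and growing cells, whose mRNA is known to be stabilised when S-adenosylmethionine is low. It stood at 50.3, 77.0 and 60.9 CPM in controls and 216, 251 and 152 CPM on MCD, without overlap, a change of 1.72 ± 0.18 log2 (adjusted p = 2.9e-06), the second smallest p of all genes. Of the other 17 genes tested, none was called higher and 3 were called lower: Ahcy, which removes S-adenosylhomocysteine (1147, 936 and 1014 CPM to 557, 673 and 496 CPM, -0.84 ± 0.27 log2, adjusted p = 0.041), and its relatives Ahcyl1 and Ahcyl2. Ahcy and Ahcyl1 lost their calls without any 1 library but MCD 2 (Ahcy adjusted p up to 0.147), and Ahcyl2 without control 2 or MCD 1 (up to 0.166). The 4 calls were 2 without control 1, and without control 2 or MCD 1 none of the 18 was called lower. In addition, the list median of -0.08 log2 was 0.18 with library totals and 0.03 without MCD 3. Gnmt, which burns surplus S-adenosylmethionine, stood at 1213, 1074 and 918 CPM and at 557, 740 and 366 CPM and missed the threshold (-0.95 ± 0.33 log2, adjusted p = 0.057). It was called without control CT08 a (0.031) or MCD 2 (0.036), by limma-voom and by DESeq2. Its edgeR adjusted p was up to 0.226 without another CT00 library.

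Genes of choline oxidation and one-carbon folate moved both ways, with 3 of 16 called higher and 6 lower. Aldh7a1, which oxidises betaine aldehyde and lysine breakdown products, fell from 383, 354 and 272 CPM to 180, 182 and 148 CPM (-0.98 ± 0.11 log2, adjusted p = 6.4e-06). The 3 genes that rose all act in mitochondria: Mthfd1l (from 0.266, 0.242 and 0.684 CPM to 3.22, 1.45 and 3.64 CPM, 2.79 ± 0.57 log2), Mthfd2 (1.77 ± 0.50) and Aldh1l2 (1.75 ± 0.47). Mthfd2 and Aldh1l2 lost their calls without control 1, control 3 or MCD 1 (adjusted p of up to 0.105 and 0.102). The 9 calls were 3 without control 1, 5 without control 3, 4 without MCD 1 and 5 without MCD 3. Of 12 genes of choline phospholipid synthesis, 2 were called, 16.7% beside 12.6% of all genes. Both were lower: the choline transporter Slc44a1 (65.5, 53.5 and 62.8 CPM to 33.6, 32.2 and 36.1 CPM, -0.84 ± 0.14 log2) and Pcyt2 of phosphatidylethanolamine synthesis (-0.50 ± 0.16 log2). Pcyt2 lost its call without any 1 library but control 2 (adjusted p of up to 0.178).

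**Figure D2:**
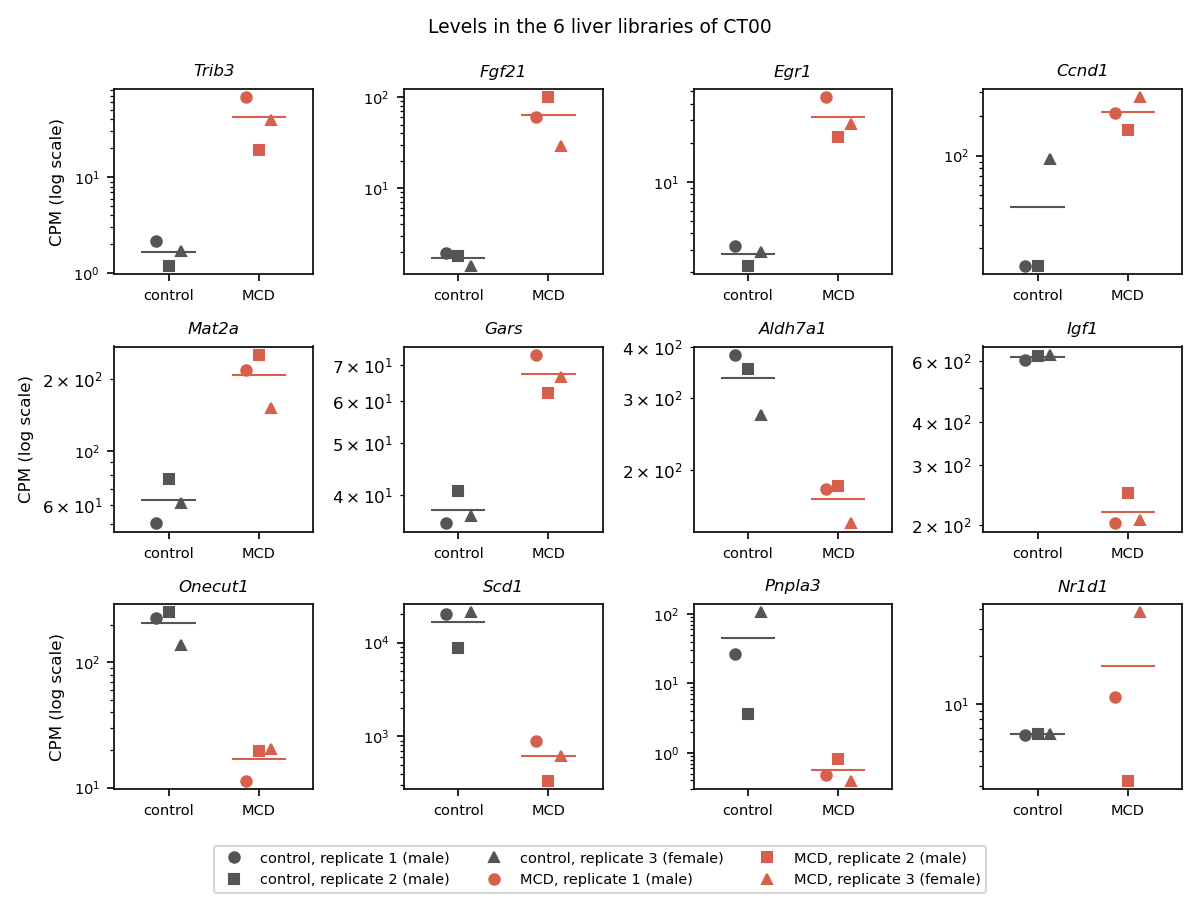
Levels of 12 genes in the 6 CT00 liver libraries, in CPM on log axes; each point is 1 library (circle and square for males, triangle for the female) and the line is the group mean. The diets do not overlap for any of them except Nr1d1, whose 3 controls lie at 6.35 to 6.40 CPM and whose MCD libraries lie at 3.23 to 38.0 CPM.

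RNA of several enzymes of fat synthesis fell. Of 25 genes of fatty acid synthesis and desaturation, none was called higher and 9 lower, with a median of -0.76 log2. The 9 calls were 6 without control 1, 7 without MCD 3, 8 or 9 without any other 1 library and 5 in males alone. Scd1, the desaturase that makes oleate, stood at 20120, 8835 and 20992 CPM in controls and 884, 334 and 624 CPM on MCD (-4.73 ± 0.68 log2, adjusted p = 9.5e-05). Pnpla3, a lipid droplet protein, stood at 26.1, 3.64 and 105 CPM and at 0.473, 0.809 and 0.393 CPM (-5.65 ± 0.90 log2). Control 2 was the lowest control for both, though still above every MCD library. Its relative Pnpla5 had 8.54, 1.17 and 6.50 CPM in controls and no count in any of the MCD libraries, so it was at least 385-fold lower (against a floor of 3 counts over the 3 libraries). The isoform Scd2 (-3.11 ± 0.46), the acetate-activating enzyme Acss2 (-2.58 ± 0.54), the elongase Elovl5 (-1.52 ± 0.24) and, in the list of lowest genes, the fatty acid carrier Fabp5 (75.9, 41.5 and 157 CPM to 2.99, 4.28 and 5.43 CPM, -4.39 ± 0.53 log2) fell too. Acacb, the acetyl-CoA carboxylase at mitochondria, fell by 1.85 ± 0.49 log2, a call lost without control 1 or MCD 3 (adjusted p of up to 0.0739). Me1, which makes NADPH, fell by 1.18 ± 0.39 log2, a call lost without any 1 library but control 3. Slc25a1, the citrate exporter, fell by 0.70 ± 0.18 log2, a call lost without control 1 (adjusted p = 0.0649).

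The central enzymes of the pathway did not pass the test at this time. Fasn, fatty acid synthase, stood at 2793, 766 and 3586 CPM in controls and 2060, 1261 and 321 CPM on MCD, which overlapped (-0.75 ± 0.77 log2, adjusted p = 0.59). Control 2, a male, and the MCD female were the low libraries of their groups. Acly, ATP citrate lyase (-1.26 ± 0.59 log2, adjusted p = 0.17), and Srebf1, the regulator of the pathway (-0.76 ± 0.42 log2, adjusted p = 0.25), did not pass either. In cholesterol synthesis and uptake 3 of 24 genes were called, 12.5% beside 12.6% of all genes. All 3 were lower: Tm7sf2 (-1.90 ± 0.45 log2), Ebp (-0.88 ± 0.17) and Sc5d (-1.03 ± 0.27), which act in the late steps from lanosterol. The Sc5d call was lost without control 1, control 3 or MCD 3 (adjusted p of up to 0.0739). The sterol sensor Insig1 missed the threshold (-1.37 ± 0.48 log2, adjusted p = 0.059) but was called without control CT08 a (0.045) or control 2 (0.028) and by DESeq2. Its edgeR adjusted p was up to 0.297 without another CT00 library.

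Of 20 lipid droplet genes 1 was called higher and 2 lower, 15.0% in all, beside 12.6% of all genes. Without control 3, MCD 1 or MCD 3, 1 in all was called, against 5 without control CT08 a. With library totals the list had 6 genes called higher and none lower. Cidec, which fuses lipid droplets, went from 0.400, 0.465 and 0.376 CPM to 19.1, 3.37 and 25.5 CPM (5.24 ± 1.11 log2, adjusted p = 0.0031), a call absent with limma-voom (adjusted p = 0.087). Plin2, the coat protein of droplets, stood at 488, 413 and 319 CPM and at 532, 507 and 1309 CPM, with the highest level in the MCD female (0.90 ± 0.32 log2, adjusted p = 0.060). It was called without control CT08 a (adjusted p = 0.049) or MCD 2 (0.033), with library totals and by DESeq2. Over the alternatives Plin2 changed by 0.19 to 1.17 log2, and with 1 CT00 library left out its edgeR adjusted p was up to 0.549. Of 37 PPAR alpha targets, 2 were called in each direction, 10.8% in all, beside 12.6% of all genes. With library totals 5 were called higher and 2 lower, and in males alone 0 higher and 4 lower. Fabp1, the liver fatty acid carrier, fell by 1.20 ± 0.34 log2. Fabp1 lost its call without control 1, control 2, MCD 1 or MCD 2 (adjusted p of up to 0.105), and the 4 calls of the list were 2 without control 1 and 1 without control 2 or MCD 1. Among bile acid genes, 2 of 21 were called higher and 4 lower, and the acyl-CoA synthetase Slc27a5, which activates bile acids, fell from 862, 759 and 807 CPM to 294, 346 and 333 CPM (-1.32 ± 0.27 log2). The bile acid importer Slc10a1 fell by 1.42 ± 0.38 log2, a call lost without control 1, MCD 1 or MCD 3 (adjusted p of up to 0.0721). The 6 bile acid calls were 1 without control 1, 3 without control 2 or control 3, and 2 without MCD 1 or MCD 3.

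Immediate early genes, the first transcription factors to answer a growth or stress signal, had the highest median of the pathway lists at CT00. Of 15 tested, 11 were called higher and none lower, with a median of 1.82 log2. Egr1 stood at 3.22, 2.24 and 2.89 CPM in controls and 44.8, 22.2 and 27.9 CPM on MCD (3.48 ± 0.69 log2, adjusted p = 0.0020). Klf6 went from 7.42, 8.77 and 9.24 CPM to 38.7, 17.8 and 33.5 CPM (1.82 ± 0.37 log2), and Fos from 0.609, 0.505 and 0.479 CPM to 2.91, 1.55 and 2.31 CPM (2.09 ± 0.48 log2). MCD 2 was the lowest MCD library for each, and still above every control. Ier3 rose by 1.69 ± 0.37 log2. Jun rose by 1.93 ± 0.50 log2, a call lost without control 1 or MCD 1 (adjusted p of up to 0.0589). Myc (2.27 ± 0.67) was lost without any 1 library but MCD 2 (up to 0.10), and Nr4a1 (2.12 ± 0.59) without control 1, control 3, MCD 1 or MCD 3 (up to 0.0945). The 11 calls were 5 without control 1 or MCD 1 and 7 without control 2. Dusp1 and Zfp36, which switch the response off, were not called (-1.01 ± 0.46 and -0.72 ± 0.32 log2), but Zfp36 was without MCD 3 (adjusted p = 0.022). Without another CT00 library the edgeR adjusted p of Zfp36 was up to 0.501.

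Genes of growth arrest and of the cell cycle rose in part. Of 24 in the list, 8 were called higher and none lower (median 1.32 log2). Cyclin D1 (Ccnd1), which opens the cell cycle, stood at 14.6, 14.7 and 94.1 CPM in controls and 208, 155 and 275 CPM on MCD (2.79 ± 0.60 log2, adjusted p = 0.0034). The female was the highest library of both groups, and the call was absent without the term for sex (adjusted p = 0.067). The growth arrest gene Gadd45b rose by 3.04 ± 0.63 log2, and Mdm2, a target and inhibitor of p53, by 0.49 ± 0.12 log2. Gadd45a rose by 2.48 ± 0.63 log2, a call lost without control 2 (adjusted p = 0.0629). The mitotic genes Cdc20 (0.304, 0 and 0.770 CPM to 17.1, 1.38 and 3.15 CPM, 4.35 ± 1.27 log2) and Ccnb1 (3.71 ± 1.20 log2) were high mainly in MCD 1. Without MCD 1, control 1 or control 2 both lost their calls, and Ccnb1 also without MCD 3 (adjusted p of up to 0.211 and 0.252). The proliferation markers Mki67 (2.36, 2.97 and 8.89 CPM and 17.2, 3.92 and 6.66 CPM) and Top2a overlapped between diets and were not called (adjusted p = 0.35 and 0.29). The list had 4 calls without control 1, control 2 or MCD 1.

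Growth hormone drives Igf1 and sex-dependent genes in liver. Of 16 genes of this axis, 2 were called higher and 4 lower. Igf1, the growth factor made under growth hormone, stood at 605, 619 and 624 CPM in controls and 203, 249 and 207 CPM on MCD (-1.49 ± 0.22 log2, adjusted p = 1.0e-04), with little spread in either group. Onecut1, a liver transcription factor induced by growth hormone, went from 226, 251 and 138 CPM to 11.3, 19.5 and 20.2 CPM (-3.53 ± 0.71 log2, adjusted p = 0.0022). Igfbp2 rose by 0.97 ± 0.19 log2. Igfbp1, a binding protein of fasting, stood at 39.4, 42.9 and 40.2 CPM and at 268, 60.1 and 373 CPM (2.58 ± 0.69 log2), a call lost without control 1, control 2 or MCD 3 (adjusted p of up to 0.110). The receptor gene Ghr fell by 0.93 ± 0.29 log2 (adjusted p = 0.033), a call lost without any 1 of the 6 libraries (up to 0.108), and the feedback inhibitor Cish by 1.91 ± 0.63 log2 (adjusted p = 0.047), a call lost without any 1 library but MCD 3. The 6 calls were 3 without control 1 or control 2. The major urinary protein genes, which have near-identical copies and uncertain levels, had 20 of 20 lower fitted levels on MCD (median -2.92 log2) and 1 call, Mup3; 6 were called lower by DESeq2, 2 without MCD 2 and 7 when control CT08 a was left out. Without a term for sex, and in males alone, 0 of the 20 were called. Mup3 stood at 9899 and 10275 CPM in the control males and 1368 CPM in the control female, against 1033, 1130 and 309 CPM on MCD (-2.91 ± 0.70 log2).

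Some genes of the interferon response and of antioxidant defence rose. Of 25 interferon genes 6 were called higher and none lower (median 0.54 log2). Rsad2, an antiviral enzyme, stood at 10.7, 8.81 and 15.5 CPM and at 31.7, 63.2 and 54.3 CPM (2.09 ± 0.45 log2). Usp18, which limits interferon signalling (1.82 ± 0.35), and Isg15, a ubiquitin-like protein (1.70 ± 0.38), rose too. The control female was the highest control for all 3, and without it 11 genes of the list were called and the median was 1.04 log2. The median was 0.82 log2 without MCD 1, and 14 genes were called with library totals. In the other direction, 4 genes were called without control 1 or control 2 and 3 with the 6 CT00 libraries alone. The interferon median was 0.38 log2 without MCD 2. Of 26 genes of glutathione and NRF2, 6 were called higher and 2 lower (median 0.70 log2). Srxn1, sulfiredoxin, went from 32.6, 22.8 and 27.4 CPM to 192, 80.8 and 171 CPM (2.43 ± 0.55 log2), and Gss, glutathione synthetase, from 36.6, 45.6 and 38.9 CPM to 96.5, 84.7 and 89.3 CPM (1.16 ± 0.22 log2). The 8 calls of this list were 3 without control 2 and 4 without MCD 1. Apcs, the acute phase protein serum amyloid P, rose from 67.5, 58.5 and 119 CPM to 404, 419 and 286 CPM (2.24 ± 0.36 log2), in a list with 3 of 26 genes called higher and 4 lower (6 and 1 with library totals). Those 7 calls were 2 without control 1, control 2 or MCD 1, 3 without control 3 and 4 without MCD 3. Among 36 genes of drug and steroid metabolism 4 were called higher and 2 lower (16.7%, beside 12.6% of all genes), with a median of 0.017 log2. Of these, Ahr, the aryl hydrocarbon receptor, rose by 1.24 ± 0.22 log2 and the female-biased Cyp2c40 fell from 138, 109 and 773 CPM to 39.7, 40.6 and 151 CPM (-1.86 ± 0.35 log2). With library totals this drug and steroid list had 8 genes called higher and 2 lower. Its median was then 0.28 log2, and it was 0.17 log2 without control 3 or MCD 3.

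Of 22 core clock genes 2 were called higher and 1 lower, 13.6% in all, near the 12.6% of all genes. The 3 calls were 1 without control 1 or MCD 3. With library totals 4 clock genes were called higher and 0 lower. Arntl (BMAL1), the activator, overlapped between the diets, with the MCD female highest: 34.0, 34.4 and 34.1 CPM in controls and 31.8, 31.8 and 36.4 CPM on MCD (-0.04 ± 0.39 log2, adjusted p = 0.97). Its repressor Nr1d1 (REV-ERB alpha) was even among controls (6.35, 6.40 and 6.40 CPM) and spread on MCD (11.0, 3.23 and 38.0 CPM), with the female highest and a male lowest (1.45 ± 0.57 log2, adjusted p = 0.098, or 0.013 without MCD 2). Over the alternatives Nr1d1 changed by 0.063 to 1.99 log2, and with 1 CT00 library left out its edgeR adjusted p was up to 0.97. The paralog Nr1d2 stood at 13.9, 14.6 and 14.3 CPM and at 28.0, 17.3 and 40.5 CPM, in the same order among the MCD mice (1.01 ± 0.27 log2, adjusted p = 0.015). That call was lost without control 1 or MCD 3 (adjusted p of up to 0.164). Tef, a D-box activator, fell by 0.74 ± 0.22 log2, a call lost without control 1, control 2, MCD 1 or MCD 3 (up to 0.109), and the kinase gene Csnk1e rose by 0.84 ± 0.17 log2. Of 25 clock output genes 3 were called higher and 1 lower, 16.0% in all, beside the same 12.6%. Tsku, a secreted liver protein, went from 23.1, 54.5 and 32.2 CPM to 193, 200 and 71.4 CPM (2.07 ± 0.47 log2), and the cell cycle kinase Wee1 from 2.78, 2.61 and 2.94 CPM to 5.93, 4.59 and 5.33 CPM (0.93 ± 0.23 log2), a call lost without MCD 1 (adjusted p = 0.0549), where 2 genes of the list were called.

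The gene with the smallest p was Gm39079, a predicted gene, at 13.6, 12.8 and 9.61 CPM in controls and 53.1, 61.9 and 59.4 CPM on MCD (2.28 ± 0.19 log2, adjusted p = 5.1e-08). After it and Mat2a came Mfsd5, a molybdate transporter (0.83 ± 0.09 log2), the splicing factor Puf60 (0.77 ± 0.08), Aldh7a1, 1700001C19Rik (-2.62 ± 0.29), the helicase Ddx54 (0.60 ± 0.07), the scavenger receptor Colec12 (-1.47 ± 0.17), the glucuronosyltransferase Ugt2a3 (-1.65 ± 0.19) and Pcbd2 (-0.99 ± 0.12). All 10 kept their calls under every alternative that was run. Among called genes of at least 1 CPM without overlap, the largest increases beyond those given were Vmn2r3, a vomeronasal receptor gene, and Sprr1a, of the cornified envelope. Vmn2r3 had no count in controls and 22.7, 8.71 and 1.62 CPM on MCD, at least 568-fold higher against a floor of 3 counts over the controls; its call was lost without control 1 or control 2 (adjusted p of up to 0.067). Sprr1a had 4 counts over the 3 controls and 1514 on MCD (11.8, 2.17 and 6.92 CPM), a call absent with limma-voom (adjusted p = 0.147). The others were Prrg4, Bhlha15 (0.0951, 0.626 and 0.718 CPM to 24.5, 7.86 and 4.01 CPM), Ly6d and Gm43064; Ly6d lost its call without any 1 library but MCD 2 (up to 0.0924), and Gm43064, at 6.93 CPM in the MCD female and 0.215 and 0.103 CPM in the males, without MCD 3 or any control (up to 0.431). The largest decreases beyond those given were Serpina4-ps1 (373, 674 and 35.9 CPM to 7.48, 1.91 and 0.160 CPM), the acetylcholine receptor subunit Chrna4 (32.6, 5.41 and 66.9 CPM to 1.49, 0.275 and 0.332 CPM), Gm6166, Gm16551, Gm3734, Gm53019 and Nat8f3, at -3.44 to -6.95 log2. Serpina4-ps1 and Nat8f3 have close relatives, as do the Scd, Gst, Cyp2c and Mup genes, so that reads can be split among them and their levels are uncertain. The strand setting of the counting is not given in the sources used here, and genes with an exon over an exon of the other strand are uncertain too; among those named are Mat2a, Aldh7a1, 1700001C19Rik, Ddx54, Pcbd2, Ccnd1, Jun, Ddit3, Cdc20, Gadd45a, Acss2, Hars, Yars, Nr1d1, Arntl, Ewsr1 and Ptbp1.

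What sets CT00 apart was asked with the diet effect at CT00 minus the mean of the effects at CT04, CT08, CT12, CT16 and CT20. By edgeR 0 of 20249 genes (0%) were called for this difference, with 1453 genes (7.18%) at an unadjusted p under 0.05; limma-voom called 0 and DESeq2 57. The same contrast called 27 genes (0.133%) for CT04, 12 (0.0593%) for CT08, 5 (0.0247%) for CT12, 9 (0.0444%) for CT16 and 1 (0.00494%) for CT20. The shares at an unadjusted p under 0.05 were 9.56%, 13.2%, 11.3%, 11% and 5.74% for these times, and of these CT20 alone had a lower share than CT00. Without control CT08 a the counts were 0 for CT00, 36 for CT04, 0 for CT08, 19 for CT12, 30 for CT16 and 0 for CT20. A difference that was not called is not shown to be absent.

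Most of the response at CT00 was seen again at other times, in other mice. Of the 2550 genes called at CT00, 1813 (71.1%) had the same direction at all 5 other times, against 6522 of all genes (32.2%), and 2039 (79.96%) were called at 1 or more of them. Without control CT08 a these were 2342 of 3059 genes (76.6%, with 38.0% of all genes) and 2532 (82.8%). For calls at 1 or more other times, the share over all genes was not computed. Of all genes 18.2% were called at CT04, 15.2% at CT12, 12.5% at CT16, 11.3% at CT20 and 1.3% (263 genes) at CT08, where 1212 of 20669 were called without control CT08 a. Genes called in the same direction at CT00 and another time numbered 1495 with CT04 (58.6% of the CT00 calls and 40.6% of the CT04 calls), 1054 with CT12 (41.3% and 34.2%), 1053 with CT16 (41.3% and 41.6%), 1312 with CT20 (51.5% and 57.3%) and 172 with CT08 (6.75% and 65.4%), and 1924, 1476, 1444, 1701 and 811 in this order without control CT08 a. No call at another time was made for 511 of the 2550 (20.0%), or 527 of 3059 (17.2%) without that library, and 52 (2.04%) had the opposite sign to the mean of the other times. For 1127 (44.2%) the change was largest at CT00, against 3192 of all genes (15.8%), and without that library for 1206 (39.4%), against 15.0% of all genes. Being called at CT00 favours a large value there, so this share is partly set by that choice.

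**Figure D3:**
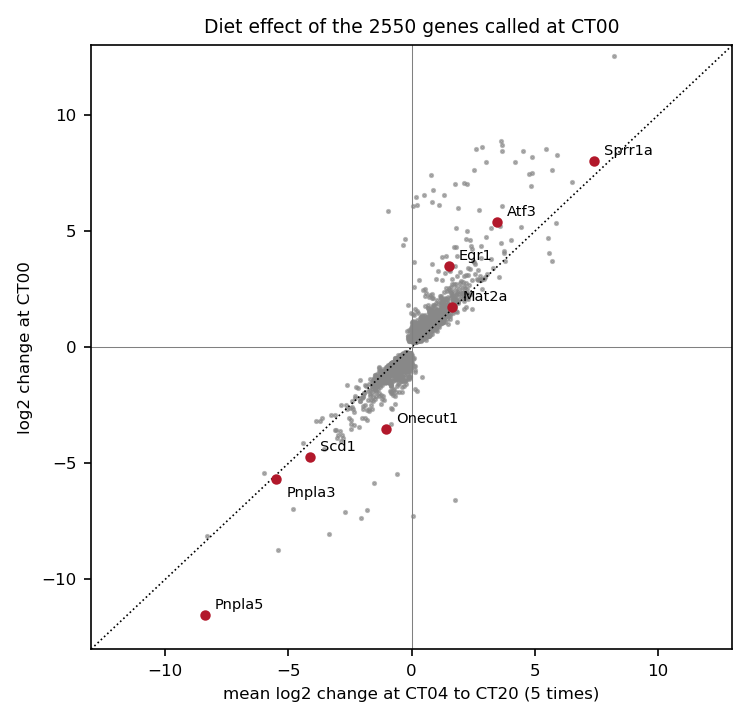
Log2 change at CT00 (vertical) against the mean log2 change at the 5 other times (horizontal) for the 2550 genes called at CT00, 1 point per gene; the dotted line marks equal change. Points lie mainly in the lower left and upper right, 52 have opposite signs, and Onecut1 and Egr1 lie further from zero at CT00 than in the mean of the other times.

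Several of the genes named above, Atf3, Nupr1, Onecut1 and Trib3 among them, had their largest change at CT00. Onecut1 changed by -3.53 log2 at CT00 and by -1.33, -1.63, -1.75 and -1.88 log2 at CT04, CT12, CT16 and CT20; at CT08 it was 1.34 log2, or 1.03 without control CT08 a. Trib3 changed by 4.64 log2 at CT00, by 1.96 to 3.83 log2 at those 4 times, and by 0.42 log2 at CT08 (0.38 without that library). The differences were -2.48 ± 0.74 log2 for Onecut1 and 2.26 ± 0.58 log2 for Trib3 and did not pass (edgeR adjusted p = 0.39 and 0.33, or 0.37 and 0.31 without control CT08 a). Egr1 changed by 3.48 log2 at CT00, 3.55 at CT12 and 2.96 at CT16, but by 0.11 at CT04, 1.02 at CT20 and -0.11 at CT08 (0.75 without control CT08 a). Scd1 and Mat2a were steadier, with changes at CT04, CT12, CT16 and CT20 of -5.10 to -3.88 and 1.30 to 2.15 log2. Fgf21 changed by 4.92 to 5.68 log2 at those 4 times and by 1.33 log2 at CT08, or 4.19 without control CT08 a.

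List medians placed CT00 among the other times. The immediate early list had its highest median at CT00 (1.82 log2), close to CT04 (1.73) and above CT12, CT16 and CT20 (1.48, 1.40 and 1.48). The ATF4 targets at CT00 (1.10) lay within the range of those 4 times (0.82 at CT12 to 1.36 at CT20). The median of fatty acid synthesis was -0.76 log2 at CT00 and -1.30, -1.08, -1.78 and -1.76 log2 at CT04, CT12, CT16 and CT20, and 15, 10, 17 and 14 of its 25 genes were called lower there against 9 at CT00. Over all genes the shares called lower were 8.71%, 7.13%, 5.99% and 5.6%, against 6.02% at CT00 and 0.751% at CT08, where 4 of the 25 were called lower. Gene by gene the list did not lean: 13 of 25 (52%) had a difference from the mean of the other times above 0, with or without control CT08 a, with a median difference of 0.011 log2. Fasn changed by -0.75 log2 at CT00, by -2.98, -1.52, -2.43 and -1.76 log2 at CT04, CT12, CT16 and CT20, and by -0.48 log2 at CT08 (-0.97 without control CT08 a). At CT08 these 3 medians were 0.13, 0.32 and -0.20 log2, and 0.75, 0.70 and -0.47 log2 without control CT08 a. These differences between list medians were not tested.

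**Figure D4:**
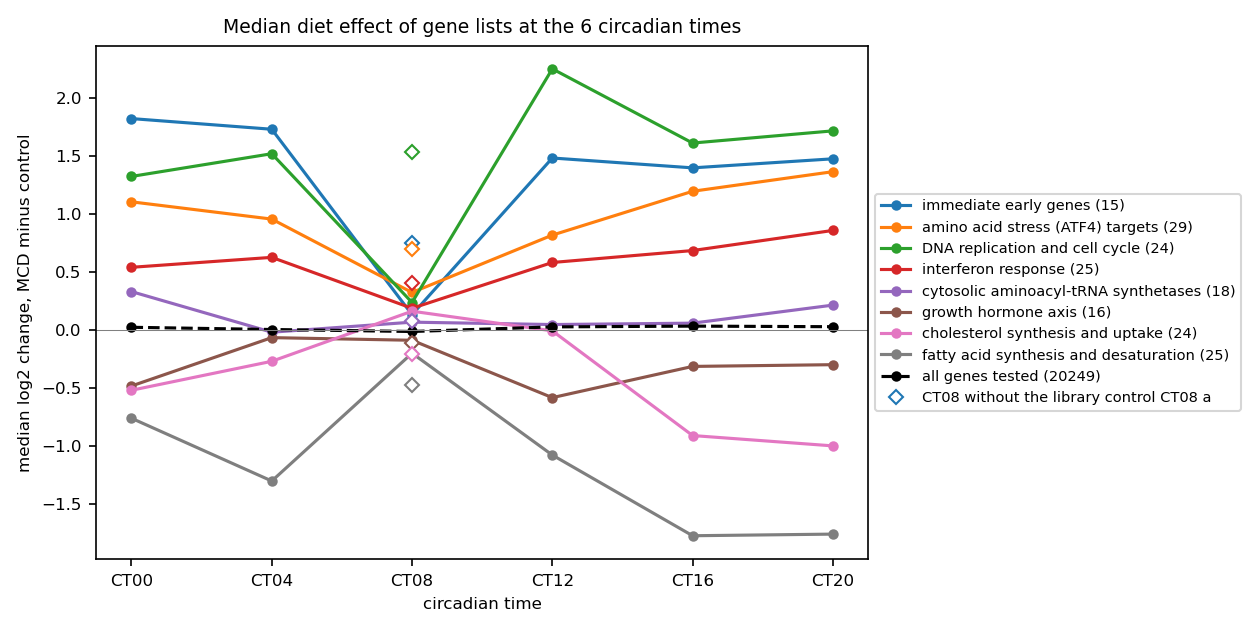
Median log2 change of 8 gene lists and of all 20249 genes (dashed) at the 6 circadian times; open diamonds give CT08 without control CT08 a. The aminoacyl-tRNA synthetases are highest at CT00 (0.33), and the median of fatty acid synthesis is -0.76 at CT00.

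For the aminoacyl-tRNA synthetases the median change was 0.33 log2 at CT00, and -0.02, 0.07, 0.05, 0.06 and 0.21 log2 at CT04 to CT20. Of 18 genes 17 had a larger effect at CT00 than in the mean of the other times, all but Qars, against 49.0% of all genes, and 7 had an unadjusted p under 0.05 for the difference, where 7.18% of all genes did. Without control CT08 a these were again 17 and 7 of 18, against 47.5% and 7.93% of all genes. Other lists were as one-sided or nearly so: the effect at CT00 was above the mean of the other times for 20 of 24 genes of the unfolded protein response, but for 1 of 12 glucocorticoid targets, 2 of 15 lipoprotein genes, 2 of 15 heat shock genes, 6 of 37 PPAR alpha targets and 2 of 14 macrophage markers. No synthetase passed the adjusted threshold. Hars changed by 0.51 log2 at CT00 and by -0.02 to 0.24 log2 at the other times, and Eprs by 0.70 log2 and -0.05 to 0.57 log2. Sars changed by 1.05 log2 at CT00 and by 0.39 to 0.72 log2 at the others.

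The 12 genes of at least 1 CPM with the smallest p for the difference were chosen after their values were seen, and none passed. Las1l, needed to cut ribosomal RNA, stood at 27.2, 27.5 and 28.3 CPM in CT00 controls and 35.9, 33.5 and 35.95 CPM on MCD, a change of 0.35 log2 where the other times had -0.28 to -0.05 (difference 0.50 ± 0.09 log2, edgeR adjusted p = 0.093). Ewsr1, an RNA-binding protein, differed by 0.39 ± 0.07 log2 (adjusted p = 0.093) and the splicing factor Puf60 by 0.48 ± 0.09 log2 (adjusted p = 0.11). The splicing regulators Ptbp1 and Ptbp2 and the spliceosome helicase Snrnp200 differed by 0.43, 0.85 and 0.52 log2 (adjusted p = 0.29 each). Ptbp1 stood at 99.6, 99.99 and 100.2 CPM in controls and 162, 143 and 145 CPM on MCD; others spread more, such as Tacc2 (25.8 to 50.9 CPM on MCD) and Ulk1, whose groups overlapped. The remaining genes were Armc9, of the cilium base (difference -1.02 ± 0.23 log2), Rsad1, Gramd1c, Fbxw2, Tacc2 and the autophagy kinase Ulk1. All but Ulk1 were called for diet at CT00. Fbxw2 lost that call without control 1, control 2, MCD 2 or MCD 3 (adjusted p of up to 0.0863), and Snrnp200 without control 1, control 2 or MCD 1 (up to 0.0869). Without control CT08 a none of the 12 passed either, with adjusted p of 0.0746 for Las1l and Ewsr1, 0.0786 for Puf60, Gramd1c and Fbxw2, and 0.188 to 0.221 for the others. Over 17 alternatives the adjusted p of the difference ran from 5.07e-05 to 0.721 for Las1l and from 6.33e-07 to 0.721 for Ewsr1, the lowest by DESeq2; all 12 were called by DESeq2, Las1l and Ewsr1 also with DESeq2's size factors in edgeR, Ewsr1 without control 3 and Snrnp200 in males alone.

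**Figure D5:**
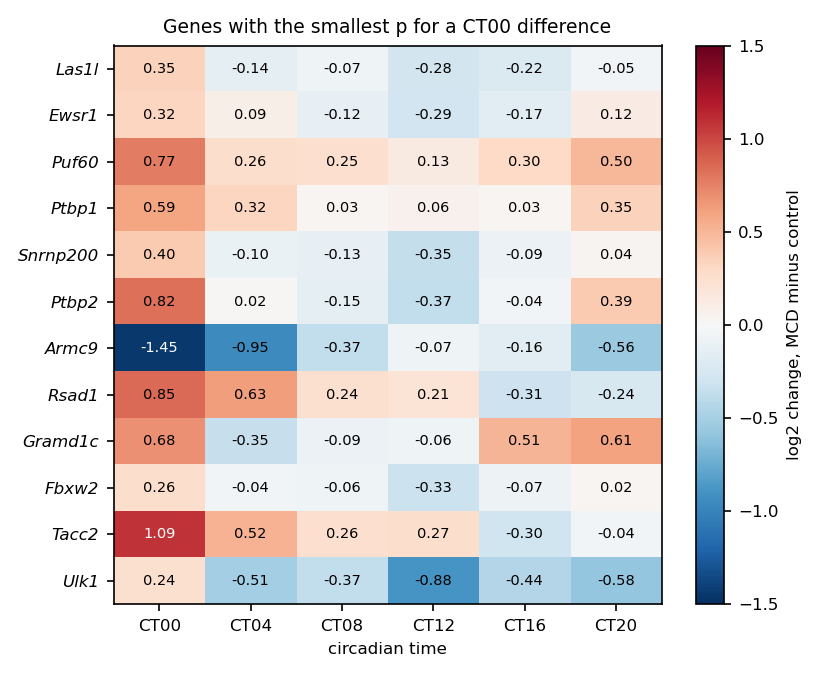
Log2 change on MCD at each of the 6 circadian times (columns) for the 12 genes with the smallest p for a CT00 difference (rows); red is higher and blue lower on MCD. Each row but Armc9 has its highest value at CT00, and Armc9 has its lowest there (-1.45 log2).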

How the data were processed

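Poly-A RNA of mouse liver was sequenced after an Illumina stranded mRNA preparation, per the labels' protocols. The deposited table holds raw counts per gene; Trimmomatic, HISAT2, StringTie, DESeq2 and GRCm39 are named in the submitters' processing notes, without versions; the strand setting used in counting is not stated. No columns of other samples were found (0). Groups were taken from the sample labels. Counts of 36 liver libraries were fitted with edgeR 4.0.16 (R 4.3.3): filterByExpr with a minimum count of 10, TMM scaling, a robust quasi-likelihood fit of 12 diet and time groups with a term for sex, and Benjamini-Hochberg adjustment over all genes tested. The SE is the log2 change divided by the square root of F. The code was tested on simulated counts. Alternatives used limma 3.58.1, DESeq2 1.42.0, other scalings, filters and designs, and left out libraries.

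Named genes were members of the lists, the 12 highest and 12 lowest changes among called genes with a mean of at least 1 CPM and no overlap between diets, the 10 smallest p-values, and genes called for a CT00 difference (0). Other genes named were chosen after their values were seen. The members and lists were chosen with earlier results of these data known. Sequences are RefSeq's, build GRCm38.p6. Replicates of 1 group differed by more than sampling noise (chi-square per degree of freedom of at least 57.7). The 6 libraries held 55511779 to 71650324 counts, and the spread between mice, with a common biological coefficient of variation of 0.306, limits the precision.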

Additional observations from a re-analysis of the deposited data

How the results depend on the processing

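The 2550 calls at CT00 numbered 3971 with library totals alone and 1406 with the 6 CT00 libraries alone. Leaving out 1 CT00 library gave 1229 (without control 1) to 2251 (without MCD 2), and males alone gave 1444. The other alternatives gave 2136 to 3324. For the difference between CT00 and the other times, 0 genes became 2 with DESeq2's size factors in edgeR and 57 with DESeq2, and 0 to 13 when replicates were left out (1 without control 1, 3 without control 3, 13 in males alone). The fit of the 6 CT00 libraries alone gives no such difference. Same-numbered samples of the 2 diets correlated at -0.153 to 0.291 over 15 pairs (CT08 left out), with 5 pairs over 0.1. Of the CT00 controls, 2 correlated best with the MCD sample of their own number. Whether the numbers mark pairs was not tested. A fit with a replicate block, on 30 libraries without CT08, gave 2350 calls and 0 for the difference. Arntl, not called, changed sign to 0.22 log2 with library totals and 0.082 log2 with a term for the kind of library. Of 131 called genes examined one by one, 55 kept their call under every alternative, 76 lost it under at least 1, and 0 changed direction. Among the 84 of them that kept their call without each CT00 library in turn, calls were lost in males alone for Acss2, Gadd45b, Tm7sf2, Fos, Ier3, Srxn1, Slc7a1, Mup3, Gm53019, Gm3734, Igfbp2, Prrg4, Tacc2 and Las1l, with the 6 CT00 libraries alone for Chrna4, Pnpla3, Pnpla5, Ddit3, Usp18, Isg15, Ahr, Bhlha15, Tsku, Ewsr1, Igfbp2, Prrg4, Tacc2 and Las1l, without a term for sex for Mup3, Cyp2c40, Gm53019, Gm3734 and Ccnd1, with limma-voom for Pnpla5, Cidec, Prrg4 and Sprr1a, and with library totals for Qars. Where these counts moved, the cause was not tested, apart from the fewer samples that leaving libraries out entails. Without all CT08 libraries, an alternative chosen after seeing the data, 3011 genes were called at CT00 and 0 for the difference. With 3 mice per group, small changes in genes that vary between mice were not detectable.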

Other observations

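Of 15 genes of very low density lipoprotein and apolipoproteins, 4 were called lower and none higher: Sar1b, which carries lipoproteins out of the endoplasmic reticulum (-0.68 ± 0.19 log2, edgeR adjusted p = 0.02), Apoc1 (-0.54 ± 0.15), Lcat, which esterifies plasma cholesterol (-0.46 ± 0.14), and Apom (-0.39 ± 0.10). Each lost its call without MCD 1 and without 1 or more other libraries (adjusted p of up to 0.12), and without MCD 1 none of the 15 was called, against 2 without control 1 or control 2. With library totals, or with the 6 CT00 libraries alone, 1 of the 15 was called lower, and in males alone none was. Among 24 genes of glucose production and glycolysis 3 were called lower and 1 higher, Igfbp1 (16.7% in all, beside 12.6% of all genes). The 3 lower ones kept their calls without any 1 library. Pygl, liver glycogen phosphorylase, stood at 809, 787 and 735 CPM in controls and 398, 429 and 334 CPM on MCD, without overlap (-1.01 ± 0.20 log2, adjusted p = 0.0016). Pcx, pyruvate carboxylase (-0.82 ± 0.17), and Fbp1, fructose bisphosphatase (-0.69 ± 0.15), act in glucose production. The glucocorticoid receptor gene Nr3c1 fell by 0.53 ± 0.12 log2 and was the only gene called among 12 of the glucocorticoid list.

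Of 26 acute phase genes 3 were called higher and 4 lower with TMM scaling, and 6 higher and 1 lower with library totals. The fibrinogen chains Fga and Fgg fell by 0.52 ± 0.15 and 0.56 ± 0.16 log2 and Orm1 by 0.90 ± 0.26 log2, while the heme carrier Hpx (0.72 ± 0.22) and Il1rn, the interleukin 1 antagonist (2.27 ± 0.69), rose. Fga and Fgg lost their calls without MCD 1 or any control (edgeR adjusted p of up to 0.117 and 0.106), Orm1 without control 1, control 3 or MCD 3 (0.13), Hpx without any 1 library but control 3 (0.14) and Il1rn without any 1 but MCD 2 (0.105). With library totals Fga, Fgg and Orm1 were not called. Trem2, a marker of lipid-associated macrophages, stood at 0.476, 0.545 and 0.701 CPM in controls and 2.91, 2.08 and 1.98 CPM on MCD and missed the threshold (2.01 ± 0.78 log2, adjusted p = 0.091), but was called without control CT08 a (0.035), with the 6 CT00 libraries alone and by DESeq2. Leaving out 1 CT00 library gave an edgeR adjusted p of up to 0.243. Of 30 ribosomal protein genes 1 was called, Rps4x (-0.29 ± 0.09 log2), a call lost without any 1 of the 6 libraries; 3 were called without control CT08 a.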
